A study of Mus musculus with 13 samples.

Results

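Cd4, Cd8a and Cd8b1, the 3 genes of the T cell coreceptors, were followed across split-pool single-cell RNA-seq data of mouse immune cells. They were found by an exact match of the gene name in the deposited gene lists and are 3 of 57010 listed genes. All 3 passed the filter on low counts in every fit given here. CD4 is a single-chain membrane protein that binds MHC class II, whereas CD8 is a pair of chains that binds MHC class I, either CD8α with CD8β (Cd8a with Cd8b1) or CD8α with itself. The cytoplasmic tails of CD4 and CD8α carry the kinase Lck to the T cell receptor. In the thymus, double-negative (DN) cells turn on both coreceptors as they become double-positive (DP) cells, and cells that pass positive selection keep either CD4 or CD8. Outside the T lineage, CD8α without CD8β is a known surface marker of type 1 conventional dendritic cells (cDC1) in mouse lymphoid organs, and CD4 is known on plasmacytoid dendritic cells (pDCs) and on some conventional dendritic cells.

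The thymic samples came from thymi of young female C57BL/6N mice, untreated as far as the sources say. The lobes of 2 mice per experiment were kept as separate samples, which the study treats as technical replicates, and were profiled with the Parse WT kit (WT for whole transcriptome, samples 1 to 4) or, in a repeat, with the Parse Mini kit (samples 1-A, 1-B, 2-A and 2-B). Lobes of 1 mouse are not independent animals, so p-values measure the spread between lobes. A further 16 samples shared the Parse WT run, and the labels of the libraries name thymus and spleen with control and chronic stress, but do not tie these to samples. The 16 are called other samples below, are given as ranges, medians or pooled counts, and enter no test. The counts are unique molecular identifiers (UMIs), and levels are UMIs per 1000000 UMIs outside ribosomal RNA (CPM). Quality control left 39369 cells in the thymic Parse WT samples, 19273 in the Mini samples and 81396 in the other samples. Total UMIs, in units of 1000000, were 30.5 to 124 per thymic Parse WT sample, 28.1 to 33.3 per Mini sample and 5.41 to 91.2 per other sample. No barcode combination was shared between samples of a kit, since the first-round well fixes the sample. The wells, not the labels, set which Parse WT samples are thymic, so 2 genes of DP thymocytes served as a check. Rag1, a recombinase subunit, stood at 738 to 1012 CPM in the thymic Parse WT samples and 1091 to 1163 CPM in the Mini samples, against 4.41 to 28.3 CPM in the other samples. Arpp21 stood at 3513 to 4140 CPM in the former and 26.0 to 183 CPM in the other samples.

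The 3 genes lie on mouse chromosome 6 (GRCm38, GENCODE M21), and no other annotated gene overlaps any of them. Cd8b1 (ENSMUSG00000053044) and Cd8a (ENSMUSG00000053977) are neighbours on the plus strand at chr6:71322788-71337494 and chr6:71373427-71379173. Cd4 (ENSMUSG00000023274) is on the minus strand at chr6:124864692-124888221. The chains differ in the short tail motif that grips Lck, 2 cysteines 1 residue apart followed by proline, and this is shown as coding sequence, in frame and 5′ to 3′. Capitals mark the 12 bases of the motif.
Cd4: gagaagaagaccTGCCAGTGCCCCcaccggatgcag
Cd8a: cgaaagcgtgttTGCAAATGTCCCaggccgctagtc
The Cd4 motif starts at codon 444 of 456 in exon 9 of 10 (chr6:124866606-124866617, minus strand), and the Cd8a motif at codon 227 of 246 in exon 4 of 5 (chr6:71375905-71375916, plus strand). Both shown stretches run on into the next exon or begin in the one before. The Cd8b1 coding sequence of 639 bases had 0 in-frame matches to the motif. Among 21524 coding genes, 530 (2.46%) held a match, so a match alone is a description of these letters. The transcripts used were 3108 bases for Cd4, 3128 bases for Cd8a and 1483 bases for Cd8b1, and since counts are not per length, levels are compared within a gene across cells, not between genes.

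Over all cells of a thymic Parse WT sample, Cd4 stood at 459.9 to 658 CPM, Cd8a at 441 to 575 CPM and Cd8b1 at 230.2 to 332 CPM. The Mini samples lay at 662 to 767, 523 to 630.4 and 361 to 419 CPM. The other samples were far lower for each gene, with medians of 41.6, 37.4 and 27.4 CPM. T cells were 87.5 to 93.7% of the cells in the thymic Parse WT samples, 92.4 to 94.7% in the Mini samples and 3.42 to 27.8% in the other samples.

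Thymic T cells were divided into stage gates by the UMIs of fixed marker lists that hold none of the 3 coreceptor genes. The gates were Il2ra-positive cells (labelled DN, 372 cells in both kits), cycling cells (led by Mki67 and Top2a), resting DP cells (led by Rag1, Rag2, Arpp21 and Dntt), selected cells (Tox, Itm2a, Cd69, Egr2, Nr4a1), CD4 lineage cells (Zbtb7b, Cd40lg, Tbc1d4, Icos) and CD8 lineage cells (Runx3, Nkg7, Itgae, Ctsw, Dapl1). UMIs were summed per sample and gate. The 8 samples are given as lowest, median and highest.

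In CPM, all 3 coreceptor transcripts were highest in resting DP cells and fell in selected cells, Cd8b1 most on the log2 scale. In resting DP cells Cd4 ranged from 684 over a median of 953 to 1106 CPM, Cd8a from 531 over 660.5 to 797 CPM and Cd8b1 from 329 over 467 to 570.0 CPM. In selected cells the values were 325, 384 and 412 CPM for Cd4, 167, 209 and 236 CPM for Cd8a, and 67.6, 104 and 153 CPM for Cd8b1. The lowest resting DP sample thus lay above the highest selected sample for each gene. The log2 difference of selected from resting DP cells was -1.30 (SE 0.072, adjusted p = 3.82e-21) for Cd4, -1.74 (SE 0.085, adjusted p = 2.86e-22) for Cd8a and -2.11 (SE 0.082, adjusted p = 5.65e-32) for Cd8b1, by edgeR's quasi-likelihood test with the sample as a block and Benjamini-Hochberg adjustment over all 7928 genes tested. All 3 members were called, in a comparison that called 48.6% of the genes tested. Within the Parse WT kit the differences were -1.18, -1.59 and -2.03, and within the Mini kit -1.40, -1.89 and -2.16.

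Before that fall the CPM of the transcripts rose from gate to gate. Per cell, UMIs of all 3 fell from the deeper cycling cells to resting DP cells in both kits. For Cd4 the Parse WT kit had 27224 UMIs in 8885 cycling cells and 26376 in 12889 resting DP cells. In cycling cells Cd4 stood at 396, 527 and 604 CPM (lowest, median and highest sample), Cd8a at 451, 519 and 624 CPM and Cd8b1 at 221, 321 and 373 CPM. Every cycling sample was below every resting DP sample for Cd4, whereas the ranges overlapped for Cd8a and Cd8b1. Cd4 rose from cycling to resting DP cells by 0.85 on the log2 scale (SE 0.057, adjusted p = 2.95e-18), Cd8b1 by 0.58 (SE 0.050, adjusted p = 3.39e-16) and Cd8a by 0.33 (SE 0.059, adjusted p = 3.88e-06), all by edgeR. The 3 members called stand beside 71.4% of the genes tested. The Parse WT kit alone gave 0.80, 0.54 and 0.24 for Cd4, Cd8b1 and Cd8a, and the Mini kit alone gave 0.90, 0.62 and 0.42.

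Cells of the Il2ra-positive gate carried all 3 transcripts, and the data go against the name DN. Cd4 stood at 197, 313 and 449 CPM in that gate, Cd8a at 197, 292 and 413 CPM and Cd8b1 at 75.7, 201 and 290.3 CPM. At least 6 UMIs of the resting DP list were present in 250 of 261 (95.8%) of these cells in the Parse WT kit and in 109 of 111 (98.2%) in the Mini kit. Cd8a stood at 303 CPM in cells with 1 to 2 Il2ra UMIs and at 253 CPM in those with 6 or more in the Parse WT kit, and at 301 and 346 CPM in the Mini kit. Cd8a was thus present in the cells with most Il2ra, and the part of doublets, for which no caller was run, was not tested. The gate is therefore called Il2ra-positive and not DN. The rise from it to cycling cells was 0.73 for Cd4 (SE 0.082, adjusted p = 6.11e-10), 0.89 for Cd8a (SE 0.088, adjusted p = 3.30e-11) and 0.69 for Cd8b1 (SE 0.082, adjusted p = 4.98e-10) on the log2 scale by edgeR. All 3 members passed, beside 28.3% of the genes tested. With no upper limit on UMIs per cell the rises were smaller, at 0.45, 0.51 and 0.49, and passed as well.

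**Figure D1:**
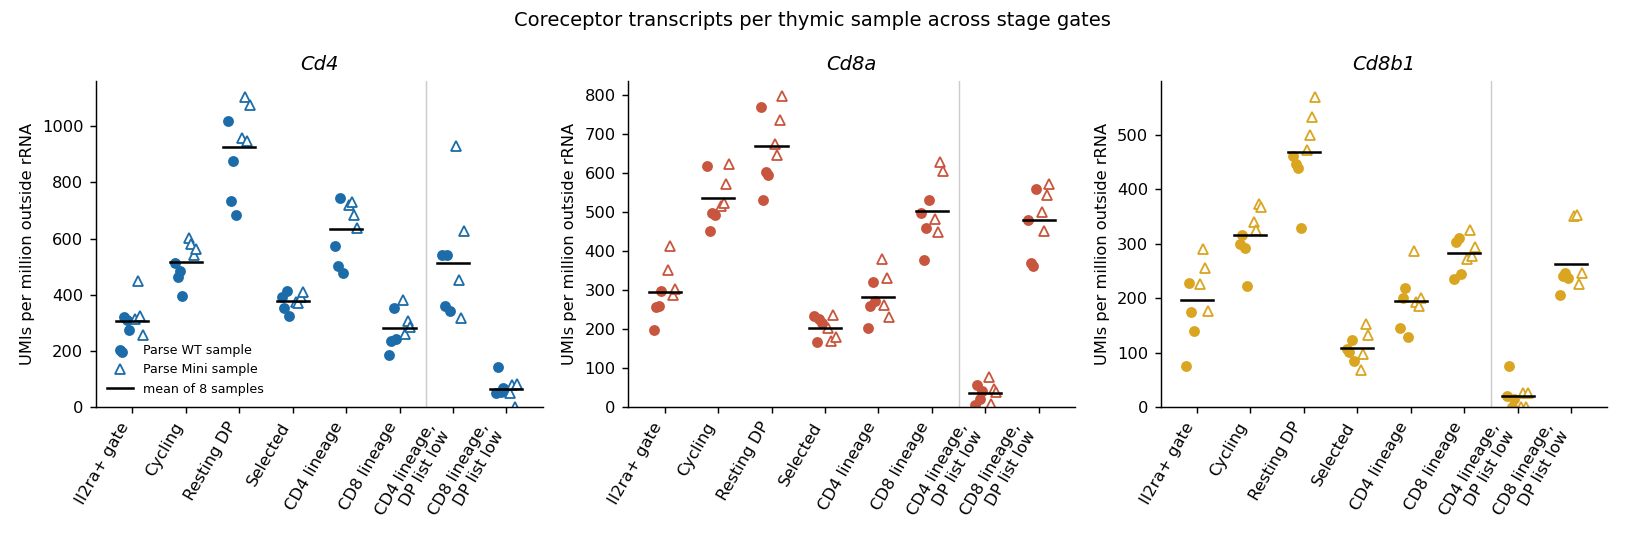
Levels of Cd4, Cd8a and Cd8b1 (y axis, CPM of UMIs outside rRNA) in each of 4 Parse WT samples (circles) and 4 Parse Mini samples (triangles) for the stage gates on the x axis, with the mean over samples as a black line. Each gene is highest in resting DP cells and lower in every selected sample, and the 2 columns right of the grey line, lineage cells low in the resting DP list (with 2 Mini sums of 6 and 8 CD4 lineage cells kept), show Cd8a and Cd8b1 low in the CD4 lineage and Cd4 low in the CD8 lineage.

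The 2 lineage gates carried their own coreceptor at higher levels than the other lineage gate did, but also held much of the opposite one. In CD4 lineage cells Cd4 stood at 478, 660.2 and 744 CPM and in CD8 lineage cells at 186, 273 and 381 CPM, with no overlap. Cd8a stood at 203, 267 and 379 CPM in CD4 lineage cells and at 376, 491 and 628 CPM in CD8 lineage cells. Cd8b1 stood at 129, 196 and 287 CPM in the former and at 235, 286 and 325 CPM in the latter, so that both Cd8 genes overlapped between the gates. The log2 difference of CD4 from CD8 lineage cells was 1.19 for Cd4 (SE 0.10, adjusted p = 6.71e-13), -0.86 for Cd8a (SE 0.11, adjusted p = 7.63e-08) and -0.58 for Cd8b1 (SE 0.11, adjusted p = 6.37e-05) by edgeR. All 3 members were called, beside 9.57% of the genes tested. For Cd8b1 the Mini kit alone did not pass (-0.46, adjusted p = 0.110), and the Parse WT kit alone gave -0.69.

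The opposite coreceptor was highest in those lineage-gated cells that also held UMIs of the resting DP list. At least 4 such UMIs were present in 219 of 405 CD4 lineage cells (54.1%) of the Parse WT kit and 109 of 197 (55.3%) of the Mini kit, and in 141 of 370 CD8 lineage cells (38.1%) and 73 of 197 (37.1%). In the 98 CD4 lineage cells of the Parse WT kit with 0 such UMIs, Cd4 stood at 449 CPM, Cd8a at 19.0 CPM (95% Poisson interval 6.97 to 41.3, covering counting error only) and Cd8b1 at 25.3 CPM. In the 177 with 10 or more, the values were 639, 368 and 232 CPM. The CD8 lineage mirrored this for Cd4, which was 65.1 CPM in the 132 cells with 0 such UMIs and 423 CPM in the 104 cells with 10 or more, while Cd8a stood at 486 and 524 CPM. The Mini kit gave the same order, with Cd8a at 28.5 and 422 CPM in its CD4 lineage cells and Cd4 at 12.6 and 542 CPM in its CD8 lineage cells. Depth moved with the list, with median UMIs per cell of 3154.5 and 8638 for the 2 groups of CD4 lineage cells and of 3355 and 7876 for those of CD8 lineage cells. No doublet caller was run, and the part of depth or of doublets in these values was not tested.

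**Figure D2:**
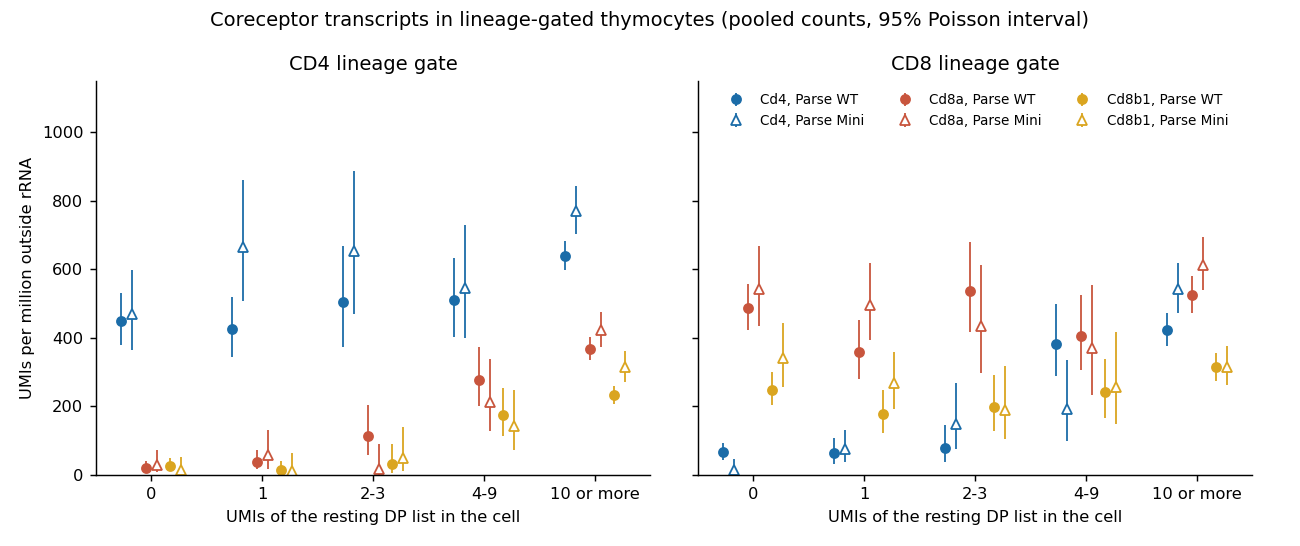
Pooled levels of the 3 genes (y axis, CPM of UMIs outside rRNA, bars 95% Poisson intervals) in CD4 lineage (left) and CD8 lineage thymocytes (right) by the UMIs of the resting DP list in the cell (x axis), for Parse WT (filled circles) and Parse Mini (open triangles). Cd8a and Cd8b1 in the CD4 lineage and Cd4 in the CD8 lineage are low at 0 UMIs of the list and highest at 10 or more.

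A stricter pair of gates required 3 times as many UMIs of the lineage list as of the resting DP list. It was chosen after the opposite coreceptor had been seen to move with that list, so the coreceptors' values in it are a description with no test. It kept 205 CD4 lineage and 298 CD8 lineage cells. The CD4 lineage sums of Mini samples 1-A and 2-A held 6 and 8 cells and are left out here, which leaves 6 samples. Over these, Cd4 stood at 342, 496 and 626 CPM in the strict CD4 lineage (lowest, median and highest) and at 0, 60.8 and 142 CPM in the 8 samples of the strict CD8 lineage. Cd8a stood at 5.26, 30.2 and 56.9 CPM against 362, 489.6 and 572 CPM, and Cd8b1 at 0, 23.0 and 75.8 CPM against 205, 243 and 352 CPM. No ranges overlapped. The log2 difference of CD4 from CD8 lineage cells in these gates was 2.95 for Cd4 (SE 0.23), -4.31 for Cd8a (SE 0.28) and -3.45 for Cd8b1 (SE 0.32). Thymic B cells, which should lack all 3 transcripts, held 45.9 CPM of Cd4, 54.2 CPM of Cd8a (95% Poisson interval 35.4 to 79.4) and 18.8 CPM of Cd8b1 in the Parse WT kit (310 cells) and 27.7, 4.62 (0.117 to 25.7) and 9.23 CPM in the Mini kit (61 cells, with 1 Cd8a UMI). Pooled over the strict CD4 lineage, Cd8a had a 95% Poisson interval of 12.9 to 43.7 CPM in the Parse WT kit and of 9.51 to 56.4 CPM in the Mini kit (counting error only), and both intervals overlapped those of the B cells of the same kit.

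Against selected cells, Cd8a and Cd8b1 rose in the CD8 lineage. The log2 difference by edgeR was 1.28 for Cd8a (SE 0.11, adjusted p = 1.43e-13) and 1.36 for Cd8b1 (SE 0.11, adjusted p = 8.28e-16), while Cd4 fell by 0.48 (SE 0.10, adjusted p = 0.000328). These are 3 members beside 21.4% of the genes tested. The strict gate gave 1.16, 1.17 and, for Cd4, -2.64. In the CD4 lineage the direction of the Cd8 genes depended on the gate. The fixed gate gave rises of 0.71 for Cd4 (SE 0.086, adjusted p = 8.43e-09), 0.42 for Cd8a (SE 0.11, adjusted p = 0.00608) and 0.78 for Cd8b1 (SE 0.12, adjusted p = 4.00e-07) by edgeR, which are 3 members beside 16.3% of the genes tested. The strict gate gave -3.15 for Cd8a (SE 0.30), -2.27 for Cd8b1 (SE 0.34) and 0.31 for Cd4 (SE 0.13) on the log2 scale. Cd8a in the fixed CD4 lineage gate passed in the Mini kit alone (0.59) and not in the Parse WT kit alone (0.30, adjusted p = 0.213).

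Cd74, a gene of antigen-presenting cells, was higher in the CD4 lineage gate than in selected cells. The summed level of H2-Aa, H2-Ab1, H2-Eb1, Cd74 and Ciita was 9.25 to 375 CPM in the 8 CD4 lineage sums, 0 to 143 CPM in the CD8 lineage and 0 to 68.7 CPM in selected cells. In 8 of 8 samples it was higher in the CD4 lineage than in the selected and the CD8 lineage cells of the same sample. Of the 5 genes only Cd74, the invariant chain, passed the filter on low counts, and its log2 difference of CD4 lineage from selected cells was 2.64. The other 4 were not tested. Cd74 UMIs were found in 34 of 405 CD4 lineage cells of the Parse WT kit and in 10 of 197 of the Mini kit. In the strict CD4 lineage they were in 10 of 139 and 4 of 66 cells. Of the genes for class II chains, H2-Aa had UMIs in the strict CD4 lineage of both kits (1 of 139 and 1 of 66 cells), while H2-Ab1 and H2-Eb1 had them in that of the Parse WT kit and none in that of the Mini kit. Their part in the coreceptor values was not tested.

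The stage differences of the 3 genes were not found to differ between the kits, although over all cells the levels of Cd4 and of Cd8b1 were higher in every Mini sample than in any thymic Parse WT sample. In the fit with a term for stage by kit, none of the 18 member contrasts passed (adjusted p of at least 0.895 by edgeR), in comparisons that called 0 to 0.0252% of the genes tested.

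Joint detection of Cd4 with a Cd8 gene, the transcript form of a DP cell, climbed with depth. All cells of the thymic samples that passed quality control were used here, with no lineage gate. In the Parse WT kit, Cd4 together with Cd8a or Cd8b1 was detected in 14.0% ± 4.40 of cells with 500 to 1000 UMIs (mean ± SD over 4 samples). The share was 31.2% ± 4.34 at 1000 to 2000 UMIs, 53.9% ± 5.34 at 2000 to 4000 UMIs and 71.5% ± 1.49 at 4000 to 8000 UMIs. It reached 87.4% ± 3.93 at 8000 to 16000 UMIs and 97.1% ± 1.81 at 16000 to 25000 UMIs. Cd4 and a Cd8 gene were thus found together under nearly every deep cell barcode. In the Mini kit the shares were 23.0% ± 2.40, 45.3% ± 4.17, 64.8% ± 3.63, 78.8% ± 3.76, 93.4% ± 2.53 and 98.3% ± 2.29 in the same bins. Cells with none of the 3 transcripts were 47.6% of the shallowest Parse WT bin and 0.7% of the deepest. The paper called and removed doublets in both Parse libraries, whereas no doublet caller was run here. The part of doublets in these shares was not tested.

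**Figure D3:**
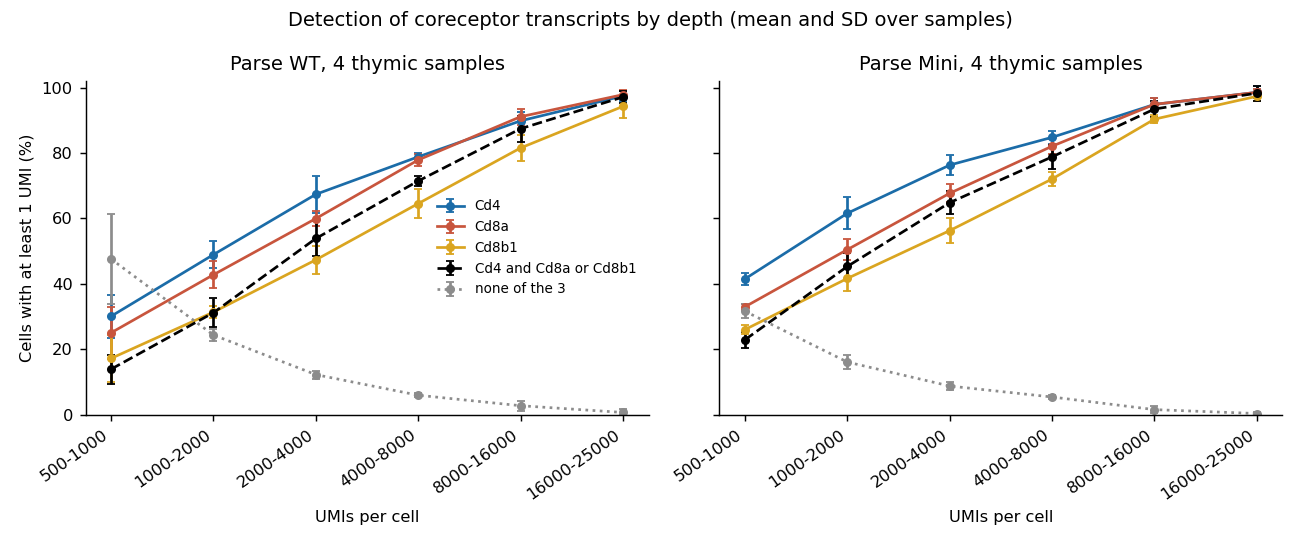
Share of all cells of the thymic samples, with no lineage gate, with at least 1 UMI (y axis, percent, mean and SD over 4 samples) of Cd4, Cd8a, Cd8b1, of Cd4 with a Cd8 gene (dashed) and of none of the 3 (dotted) by UMIs per cell (x axis), for Parse WT (left) and Parse Mini (right). Joint detection climbs from 14.0 to 97.1% in Parse WT and from 23.0 to 98.3% in Parse Mini.

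As means over samples, joint detection lay a little above the product of the 2 single shares in every bin. Single samples did not all do so. Mini sample 2-A at 500 to 1000 UMIs had 20.1% against a product of 20.6%, and Mini samples 1-A and 1-B equalled their product in the deepest bin. In the Parse WT kit the products were 11.4, 28.4, 50.0, 68.3, 85.2 and 96.4%, and in the Mini kit 20.7, 41.7, 60.9, 75.2, 92.0 and 97.9%. For the 2 Cd8 chains, the Parse WT kit at 2000 to 4000 UMIs had both in 33.1% of cells against a product of 28.4%, and the Mini kit 44.3% against 38.2%. Depth and cell class still vary within a bin, and their part in this excess was not tested.

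With every cell thinned to 1000 UMIs, joint detection was highest in resting DP cells, at 33.0% ± 7.92 (SD over 8 samples), and the product of single shares there was 32.4%. In the Parse WT kit it was 27.1% ± 6.84 in resting DP cells (SD over 4 samples), 13.4% ± 2.90 in cycling, 8.94% ± 3.33 in CD4 lineage, 6.17% ± 3.26 in CD8 lineage, 4.46% ± 1.03 in selected and 4.31% ± 2.63 in Il2ra-positive cells. In the Mini kit it was 38.8% ± 2.75 in resting DP cells, 20.1% ± 2.16 in cycling, 13.7% ± 4.87 in Il2ra-positive, 13.2% ± 5.10 in CD4 lineage, 8.81% ± 4.28 in CD8 lineage and 5.80% ± 1.89 in selected cells. Il2ra-positive cells thus took different places in the 2 kits, and neighbours below cycling cells differed by less than the larger of their SDs in either kit. Over both kits without thinning, cycling cells led at 76.3%, followed by resting DP cells at 66.4%, Il2ra-positive cells at 62.0%, CD4 lineage cells at 51.2%, CD8 lineage cells at 34.2% and selected cells at 16.7%. Median UMIs per cell differed as strongly, with 11846 in Il2ra-positive, 8009 in cycling, 2255 in resting DP, 2268 in selected, 5227 in CD4 lineage and 4240 in CD8 lineage cells. Thinning left out 1992 resting DP, 169 cycling, 109 selected, 4 CD8 lineage, 1 CD4 lineage and 0 Il2ra-positive cells with under 1000 UMIs.

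The ratio of Cd8b1 to Cd8a UMIs, which is read here only across cells, moved with the stage. Pooled over T cells it was 0.593 in the thymic Parse WT samples (0.476 to 0.755 over samples) and 0.684 in the Mini samples (0.665 to 0.712). It was 0.545 in cycling, 0.662 in resting DP and 0.472 in selected cells of the Parse WT kit, and 0.632, 0.728 and 0.609 in those of the Mini kit. From cycling to resting DP cells the ratio rose 1.19-fold, in 8 of 8 samples (adjusted p = 0.0203). From resting DP to selected cells it changed 0.745-fold and was lower in 7 of 8 samples (adjusted p = 0.0290). The CD4 lineage gate was above selected cells 1.31-fold in 7 of 8 samples (adjusted p = 0.0290), and the CD8 lineage was 1.08-fold from selected cells, which did not pass (adjusted p = 0.533). These are two-sided exact sign-flip permutation tests over 8 samples, adjusted over 13 comparisons, with 0.00781 as the smallest p such a test can give. The ratio of the CD4 lineage gate is mostly that of its cells with 10 or more UMIs of the resting DP list. Those cells held 491 of its 559 Cd8a UMIs and 310 of its 351 Cd8b1 UMIs in the Parse WT kit. In the Mini kit they held 264 of 292 and 196 of 214.

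The ratio of Cd4 to Cd8a UMIs passed in 5 of the 6 stage comparisons and that of Cd8b1 to Cd8a in 3 of 6. By the same exact permutation test it rose 1.43-fold from cycling to resting DP cells and 1.36-fold from there to selected cells, each in 8 of 8 samples (adjusted p = 0.0203). It was 0.296-fold in CD8 lineage against selected cells, lower in every sample (adjusted p = 0.0203), and 4.08-fold in CD4 against CD8 lineage cells in 8 of 8 samples (adjusted p = 0.0203). In CD4 lineage against selected cells it was 1.21-fold, higher in 7 of 8 samples (exact permutation test, adjusted p = 0.0381). The ratio of Cd8b1 to Cd8a was 1.21-fold in CD4 against CD8 lineage cells, higher in 7 of 8 samples, which did not pass (exact permutation test, adjusted p = 0.0790). In each comparison of the CD4 lineage gate, its Cd8 UMIs came mostly from cells that also held UMIs of the resting DP list. From Il2ra-positive to cycling cells neither ratio passed, with 0.932-fold for Cd4 to Cd8a and 0.927-fold for Cd8b1 to Cd8a (exact permutation test, adjusted p = 0.295 for each).

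Wells of 1 sample also differed in these ratios. The differences between stages above were taken within a sample with its wells together, and the part of wells in them was not tested. Each Parse sample was loaded into several first-round wells, and wells of 1 sample differed in the ratio of Cd8b1 to Cd8a by 1.12 to 1.76-fold in the thymic Parse WT samples and by 1.14 to 1.50-fold in the Mini samples. For the ratio of Cd4 to Cd8a it was 1.06 to 2.40-fold in the thymic Parse WT samples and 1.11 to 1.355-fold in the Mini samples. Cd4 itself differed between wells of 1 thymic Parse WT sample by 1.06 to 1.52-fold and Cd8a by 1.09 to 1.83-fold.

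In the other samples, T cells that passed the 2 lineage gates carried little of the opposite coreceptor. The 1017 CD4 lineage T cells held 469 CPM of Cd4 (13 samples from 286 to 578, median 481), 20.2 CPM of Cd8a and 20.2 CPM of Cd8b1. The 1823 CD8 lineage T cells held 58.7 CPM of Cd4 (14 samples from 25.5 to 118), 359 CPM of Cd8a (186 to 698, median 358) and 378 CPM of Cd8b1 (224 to 465, median 329). The 47239 B cells of these samples served as the background, whose source was not tested, with 17.9, 13.2 and 12.4 CPM of the 3 genes. At least 1 UMI was found in 4.43, 3.56 and 3.23% of B cells at a median of 3300.0 UMIs per cell. The 2 Cd8 genes in CD4 lineage T cells thus lay close to that background, and Cd4 in CD8 lineage T cells above it. Thinned to 1000 UMIs, Cd4 and a Cd8 gene were found together in 0.06% of CD8 lineage and 0.30% of CD4 lineage T cells, where the products of the single shares were 1.66 and 0.69%.

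The ratio of Cd8b1 to Cd8a was higher in these T cells than in thymocytes. Pooled over CD8 lineage T cells it was 1.05 (95% interval 0.990 to 1.11, counting error only), with 14 samples from 0.329 to 1.72 and a median of 1.02, against 0.546 and 0.543 in thymic CD8 lineage cells of the Parse WT and Mini kits. The difference was not tested, since the labels put these samples in no group, and wells of 1 other sample differed in the ratio of all their T cells by up to 2.89-fold. B cells, at background levels of both genes, had a ratio of 0.940 in the same samples.

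**Figure D4:**
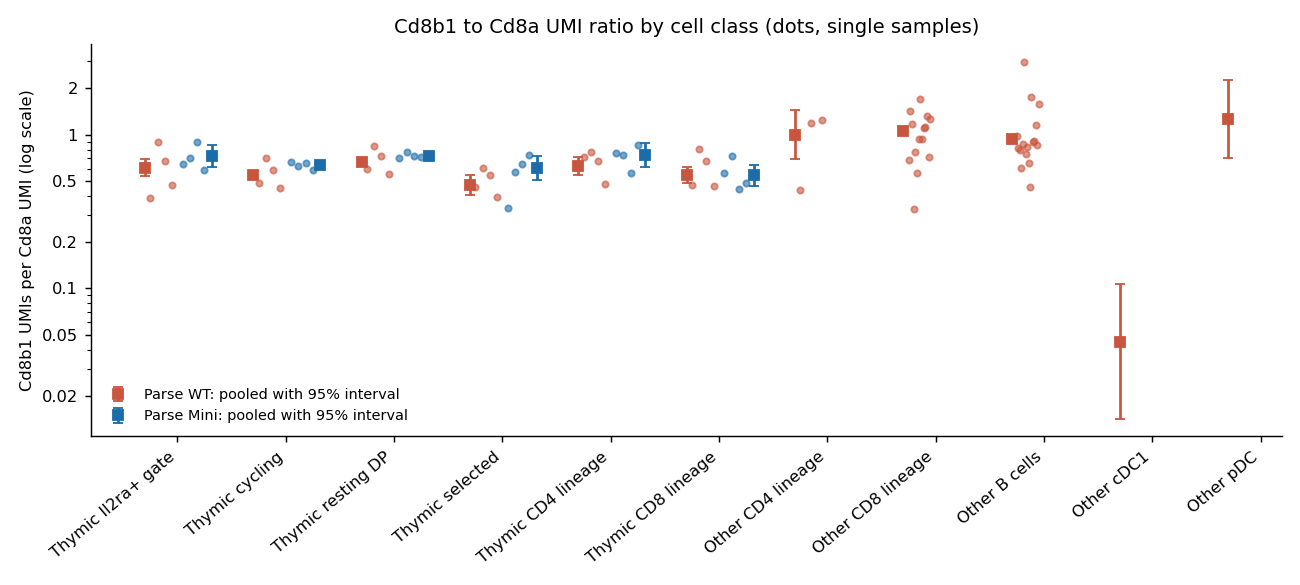
Ratio of Cd8b1 to Cd8a UMIs (y axis, log scale) by cell class (x axis), for thymic stages in Parse WT (red) and Parse Mini (blue) and for classes of the other samples; dots are single samples with at least 20 UMIs of the 2 genes and squares pooled counts with 95% intervals. Thymic resting DP cells sit above selected cells in 7 of 8 samples, CD8 lineage T cells of the other samples spread from 0.329 to 1.72, and cDC1 lie far below every other class at 0.0446.

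Dendritic cells carried the coreceptors in other combinations. cDC1, gated on Xcr1, Clec9a, Cadm1, Tlr3 and Snx22, held Cd8a with far less Cd8b1 beside it than T cells did. In 193 cDC1 of the other samples Cd8a stood at 118 CPM (12 samples from 39.9 to 218, median 126), with a UMI in 33.7% of cells, Cd8b1 at 5.29 CPM and Cd4 at 22.2 CPM. That is 5 Cd8b1 UMIs beside 112 Cd8a UMIs, a ratio of 0.0446 (95% interval 0.0142 to 0.107), while the ratio in T cells of the same samples was 1.02. The few thymic cDC1 had Cd8a at 113 CPM (33 cells, Parse WT) and 172 CPM (17 cells, Mini), with 5 Cd8b1 UMIs beside 21 of Cd8a (ratio 0.238, 95% interval 0.0701 to 0.649) and 3 beside 14 (0.214, 0.0395 to 0.768). These intervals include the ratios of thymic T cells, 0.593 and 0.684.

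pDCs, gated on Siglech, Klk1, Cox6a2 and Pacsin1, held Cd4 well above the B cell background. In 154 pDCs of the other samples Cd4 stood at 297 CPM (5 samples with 10 or more cells from 154 to 414, median 343), with a UMI in 48.1% of cells. Cd8a was at 41.1 CPM (95% Poisson interval 26.1 to 61.7) and Cd8b1 at 51.8 CPM (34.7 to 74.4), against 13.2 and 12.4 CPM in the pooled B cells. Sample by sample, Cd8b1 was higher in pDCs than in B cells in all 5 samples, and Cd8a in 3 of 5, with 27.6 against 28.9 CPM and 0 against 13.9 CPM in the others. The ratio of Cd8b1 to Cd8a in pDCs was 1.26 (23 Cd8a and 29 Cd8b1 UMIs, 95% interval 0.704 to 2.28), apart from that of cDC1. Thymic pDCs had Cd4 at 552 CPM (19 cells, Parse WT) and 529 CPM (8 cells, Mini).

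The 18 type 2 conventional dendritic cells (cDC2) of the other samples, gated on Cd209a, Clec4a4, Clec10a and Mgl2, held Cd4 at 194 CPM (95% Poisson interval 124 to 289) and 0 UMIs of Cd8a, for which the upper limit was 29.8 CPM. The few thymic cDC2 had 0 UMIs of Cd4 in 8 cells of the Parse WT kit and 2 of the Mini kit (upper limits 125 and 586 CPM), and 3 and 1 UMIs of Cd8a, too few to set against the other samples. Natural killer (NK) cells, a class without a T cell receptor, stood at 8.10, 7.29 and 4.86 CPM of Cd4, Cd8a and Cd8b1 (526 cells). Monocytes had 10.6, 5.85 and 5.57 CPM (1124 cells), all at or under the B cell level.

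Macrophages, gated on genes such as Spic, Vcam1 and C1qa, had more Cd4 per UMI in the thymic than in the other samples. The 538 of the other samples stood at 30.8 CPM of Cd4, 4.62 CPM of Cd8a and 4.11 CPM of Cd8b1. The 21 thymic macrophages of the Parse WT kit held 260 CPM of Cd4 (95% Poisson interval 166 to 387) and the 18 of the Mini kit 375 CPM (243 to 554), with Cd8a at 32.5 and 30.0 CPM and no Cd8b1 UMI in either, for which the upper limits were 39.9 and 55.4 CPM. The difference rests on few thymic cells and was not tested. Neutrophils of the other samples stood at 24.9, 14.0 and 10.1 CPM (1729 cells), near the B cells. Of the 15 thymic neutrophils of the Parse WT kit, 3 held all 10 Cd4 UMIs, 3 held a Cd8a UMI and 1 held Cd8b1, which gives 248 CPM of Cd4 (95% Poisson interval 119 to 456, counting error only). In the Mini kit 1 of 2 neutrophils held 4 Cd4 UMIs. A level for the class cannot be read from so few cells. Thymic monocytes were 4 and 3 cells, with 2 and 0 Cd4 UMIs.

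**Figure D5:**
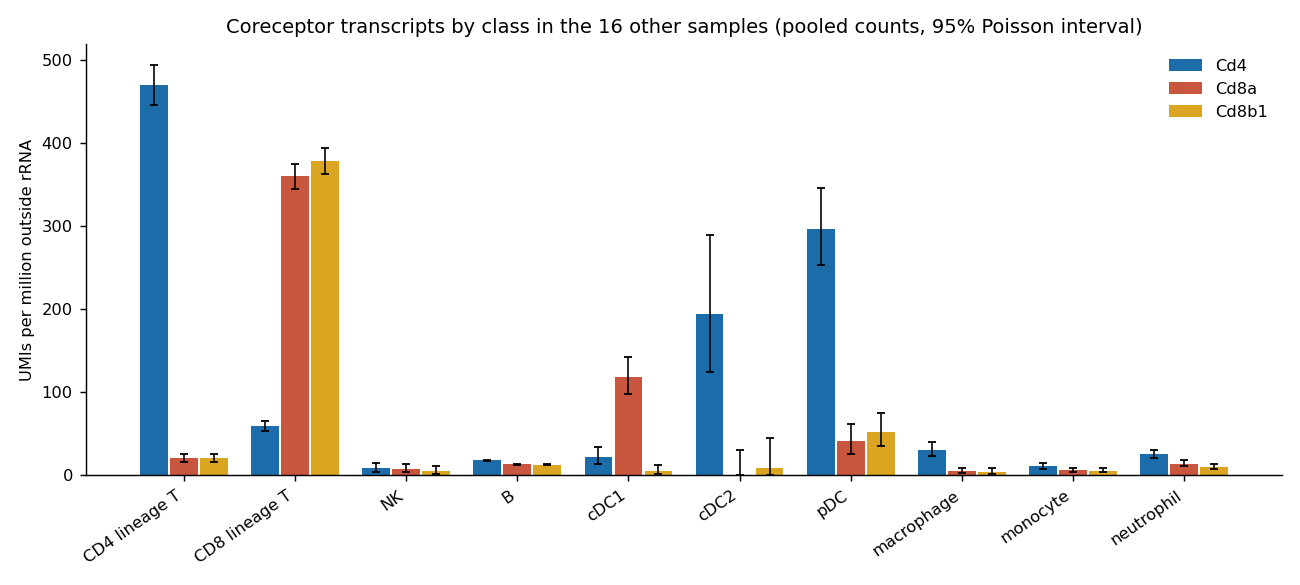
Pooled levels of Cd4, Cd8a and Cd8b1 (y axis, CPM of UMIs outside rRNA, bars with 95% Poisson intervals) in cell classes of the 16 other samples (x axis). Cd4 is high in CD4 lineage T cells (469), pDCs (297) and cDC2 (194, from 18 cells), Cd8a is at 118 in cDC1 without a matching Cd8b1, and B cells mark the background.

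Genes that pass on or control coreceptor signals were followed in 2 lists. The signalling list holds Lck, Zap70, Cd247, Cd3e, Cd3d, Cd3g, Lat, Themis and Ptprc, of which Themis and the Cd3 genes also served in the T cell gate. All 9 rose from cycling to resting DP cells (median log2 difference 0.43, 0.02 over all genes tested), a comparison that called 71.4% of all genes. Examples are Lck, the kinase bound by the coreceptor tails (0.55), Themis (0.67) and Cd247, the ζ chain of the receptor (0.56). From resting DP to selected cells 6 of the 9 fell and 2 rose, beside 48.6% of all genes called. Lck fell by 0.65 (SE 0.047, adjusted p = 7.20e-21), the adaptor Lat by 0.77 (adjusted p = 3.57e-17) and Themis by 1.12 (adjusted p = 6.80e-23) on the log2 scale, while Zap70, the kinase that docks on the activated receptor, rose by 0.52 (adjusted p = 2.90e-12), all by edgeR. From Il2ra-positive to cycling cells 6 rose and 1 fell (28.3% of all genes called). Against selected cells 2 were higher and 3 lower of 9 in the CD4 lineage (16.3% of all genes called) and 1 higher and 3 lower in the CD8 lineage (21.4%). Between the lineages 1 was higher in the CD4 lineage and 8 did not pass (9.57%). In the strict gates, against selected cells, none was higher and 2 were lower in the CD4 lineage (14.4% of all genes called) and none was higher and 3 were lower in the CD8 lineage (23.5%), while between the lineages 1 was higher and 1, Themis, lower in the CD4 lineage (5.19%). The strict gates were chosen after seeing the data, so these counts are descriptions. Their fit left out the CD4 lineage sums of Mini samples 1-A and 2-A.

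The list of regulators holds 15 transcription factors and chromatin proteins that act on the coreceptor genes or on lineage choice (Runx1, Cbfb, Gata3, Myb, Ikzf1, Bcl11b, Satb1, Patz1, Tcf7, Lef1, Tcf12, Tcf3, Zbtb7b, Runx3 and Tox). Of these, Zbtb7b, Runx3 and Tox were used by the stage gates and are left out of the counts, which leaves 12. Bcl11b, which also served in the T cell gate, is kept among the 12. From Il2ra-positive to cycling cells 7 rose and 1 fell (28.3% of all genes called), and from there to resting DP cells 5 rose and 5 fell (71.4%). From resting DP to selected cells 5 rose and 6 fell (48.6%). Gata3, which favours the CD4 lineage, rose by 1.91 (SE 0.066, adjusted p = 7.48e-39), Lef1 by 1.85 (adjusted p = 3.11e-35) and Ikzf1 by 0.80 (adjusted p = 3.21e-29) on the log2 scale, whereas the E protein Tcf12 fell by 1.07 (adjusted p = 8.88e-33) and Myb by 0.70 (adjusted p = 2.14e-13), all by edgeR.

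Between the 2 lineages 6 of the 12 regulators were higher in CD4 lineage cells and the other 6 did not pass (median log2 difference 0.24, 0.01 over all genes), beside 9.57% of all genes called. In the strict gates 5 were higher, 1, Tcf12, was lower and 6 did not pass, beside 5.19% of all genes called. All counts and values of the strict gates are descriptions, since these gates were chosen after seeing the data. Their fit left out the CD4 lineage sums of Mini samples 1-A and 2-A. Gata3 was higher by 1.04 (adjusted p = 1.71e-09 by edgeR) and by 1.78 in the strict gates. Runx1, a member of the family that silences Cd4 in CD8 lineage cells, was higher in the CD4 lineage by 0.60 (adjusted p = 5.80e-08 by edgeR) and by 1.13 in the strict gates, and the chromatin organiser Satb1 by 0.43 (adjusted p = 3.28e-06 by edgeR) and 0.71. Against selected cells 1 rose and 5 fell in the CD4 lineage (16.3% of all genes called), and 8 fell in the CD8 lineage (21.4%). In the strict gates none rose and 8 fell in the CD4 lineage (14.4% of all genes called), and 10 fell in the CD8 lineage (23.5%). Myb stood at -0.31 in the CD4 lineage and at -2.70 in the strict CD4 lineage.

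The genes whose levels were most like those of the coreceptors over 15 classes, the 6 thymic stages and 9 classes of the other samples, were found among 10206 genes outside the marker lists. For Cd4 they were Nav2 (Pearson's r of the mean log2 level 0.963), St8sia1 (0.959), Zhx3 (0.939), Cyb5d1 (0.925) and Cplane1 (0.924). For Cd8a they were Patz1 (0.926), 4921525O09Rik (0.925), Trpc4ap (0.910), Trub1 (0.906) and Tmem87a (0.897). For Cd8b1 they were Nsg2 (0.936), Tbxa2r (0.934), 4921525O09Rik (0.929), Abcb9 (0.925) and 1810062O18Rik (0.920). Among the coreceptors, Cd8a and Cd8b1 were alike at 0.925, Cd4 and Cd8b1 at 0.770 and Cd4 and Cd8a at 0.694. The classes share libraries and 6 of the 15 are T cell stages of the same samples, so these values are descriptions. Of these genes only Patz1, a repressor known to act on the coreceptor loci, belongs to the list of regulators.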

How the data were processed

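The authors made the deposited counts with split-pipe on an mm10 index from Ensembl, collapsing reads to UMI counts per cell and gene, and combined the sublibraries of each Parse kit into 1 matrix without normalization. Neither the version of split-pipe nor the release of Ensembl is given in the sources used here. The 10x libraries were not analysed here.

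The 3 genes and all lists were chosen with earlier results of these data known. Kept cells had 500 to 25000 UMIs, of which no more than 15% were mitochondrial. A lineage needed at least 3 UMIs from 2 genes of its list and 3 times those of each other lineage list. Stages were set by lists without the coreceptor genes, with at least 3 UMIs (2 for the CD4 and CD8 lineages and for Il2ra-positive cells). They needed 3 times the UMIs of some, not all, of the other stage lists. The Il2ra-positive, cycling, CD4 lineage and CD8 lineage gates set no limit on the resting DP list. No doublet caller was run. The gates drop cells with markers of 2 lineages but not doublets of T cells, and 2020 Parse WT and 921 Mini cells passing more than 1 stage gate were left out. A combination of 3 wells recurred in another sublibrary for 44889 Parse WT and 2720 Mini cells, which were kept as separate cells.

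UMIs were summed per sample and stage, with at least 10 cells a sum, and tested with edgeR 4.0.16 (R 4.3.3, TMM, filterByExpr, quasi-likelihood, lobe as block since stages come from the same lobes, Benjamini-Hochberg at 0.05). The script was tested on simulated data. DESeq2 1.42.0, other scalings, filters, gates and depths, and each left-out sample were alternatives. Ratios were tested by exact sign flips (Python 3.11.15, scipy 1.17.1). Intervals are exact and cover counting error only. Some listed genes are not reported here. Genes named are the 3 coreceptors, the 2 lists, the class markers and the 5 genes most correlated with each coreceptor on log2(CPM + 10), with at least 20 CPM in a class. The median depth was 2912 to 3900 UMIs per cell in thymic Parse WT samples, 2306 to 3078.5 in Mini samples and 1525 to 7291 in the other samples.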

Additional observations from a re-analysis of the deposited data

Results flagged for a closer look

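Each of 72 groups of 4 samples was searched for a sample far from the rest, of which chance flags about 1 in 20, and 3 were found. Cd8b1 in CD4 lineage thymocytes of the Mini kit was highest in sample 1-A at 287 CPM, with the other samples at 186 to 199 CPM. In resting DP cells of the Parse WT kit Cd8b1 was lowest in sample 4 at 329 CPM, against 439.6 to 461 CPM in the others. Joint detection of Cd4 and a Cd8 gene in cells of 4000 to 8000 UMIs of the thymic Parse WT samples was lowest in sample 1 at 69.2%, against 72.0 to 72.4% in the others.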

How the results depend on the processing

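Of the values of the 18 member contrasts under other settings, 209 kept their direction and call, 5 lost the call and 2 turned, and all 144 with a sample left out kept both. The 7 that did not keep both concern the lineage gates. In CD4 lineage against selected cells, the gate that excludes the resting DP list turned Cd8a to -3.15 and Cd8b1 to -2.27. It was chosen after seeing the data and gave 0.31 for Cd4, 1 of the 5 lost calls. For this comparison Cd8a also lost its call with Parse WT samples alone (0.30), 1 more UMI required (0.29) or a list ratio of 2 (0.20). At that ratio Cd8b1 moved to 0.36 and kept its call. From Il2ra-positive to cycling cells, no upper UMI limit lowered Cd4 from 0.73 to 0.45 and Cd8a from 0.89 to 0.51 with the calls kept. Cd8b1 in CD4 against CD8 lineage cells lost its call in the Mini samples alone (-0.46). The fit without the replicate block, which ignores that stages come from the same lobe, gave -1.32 in place of -1.30 for Cd4 in selected against resting DP cells and changed no member's call.

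With the Parse WT and the Mini samples alone, the genes called numbered 1442 and 985 (2243 with both) for cycling against Il2ra-positive cells, 717 and 624 (1293) for CD4 lineage and 1064 and 973 (1697) for CD8 lineage against selected cells, and 459 and 259 (759) for CD4 against CD8 lineage cells. Fewer samples entered each of those fits. The gate that excludes the resting DP list called 427 in the last comparison.

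Joint shares moved with depth. With bins of UMIs outside ribosomal RNA they were 26.7 and 49.9% in the 2 shallowest Mini bins, and 40.2, 61.3, 77.6, 92.0 and 99.1% in the Parse WT bins from 1000 UMIs. Over both kits, thinned to 500 and to 2000 UMIs, they were 2.53 and 18.8% in Il2ra-positive, 5.69 and 39.0% in cycling, 13.1 and 62.2% in resting DP, 1.99 and 13.7% in selected, 4.41 and 29.5% in CD4 lineage and 3.65 and 18.6% in CD8 lineage cells. The gate that excludes the resting DP list gave 3.66% in the CD4 and 0.801% in the CD8 lineage at 1000 UMIs, where the former includes Mini sums of 6 and 8 cells, and a ratio of Cd8b1 to Cd8a of 0.833 in Parse WT CD4 lineage cells, from 10 and 12 UMIs of the 2 genes.

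In the other samples, all UMIs as the denominator lowered the median Cd4 to 367 in CD4 lineage T cells and to 189 in T cells, and Cd8b1 in T cells to 106, as UMIs per 1000000 UMIs. A ratio of 2 between lists moved Cd8a to 18.1 in cDC2 and to 9.65 CPM in monocytes. The causes of these shifts were not tested. Leaving out any single sample moved none of the counts of genes called beyond the limit set. The ratios and joint shares did not pass their limits either, but those limits were the SD over samples. A mean share cannot move by that much when a single sample is left out, and a pooled ratio hardly can. For shares and ratios this check thus says little.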

Other observations

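Thymic pDCs also held Cd8b1, at 207 CPM (95% Poisson interval 107 to 362) in the 19 cells of the Parse WT kit and 106 CPM (28.8 to 271) in the 8 cells of the Mini kit, with 12 Cd8b1 UMIs beside 5 of Cd8a and 4 beside 1. Over all pDCs of both kits the ratio of Cd8b1 to Cd8a was 1.55 (95% interval 0.952 to 2.57, from 45 and 29 UMIs), whereas over the 243 cDC1 it was 0.0884, from 13 and 147 UMIs. These are pooled counts with no test.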
